A study of Mus musculus with 9 samples.

Results

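The Hox genes described here are 10 members of the 4 mammalian Hox clusters that mark hindbrain and spinal cord: Hoxa3, Hoxa4, Hoxa5, Hoxb2, Hoxb3, Hoxb4, Hoxb5, Hoxb6, Hoxc4 and Hoxc5. They were taken by symbol from a table of 22192 genes, which holds 39 Hox genes in all, and each of the 10 was found in it. The list was drawn up with measured levels of these samples known, chiefly the high levels in the young libraries. The differences of the other groups from the young group are therefore given as a description, and nothing is supported with them. All 9 libraries were labelled brain of male KM mice, an outbred stock. In the young saline group, mice of 5 months received oral saline every 2 days for 4 weeks. The aged saline group held mice of 18 months on the same saline schedule. The third group, called treated below, held mice of 18 months given GRP-E1F2, a ginseng root polysaccharide, at 200 mg/kg by gavage every 2 days for 4 weeks. Each group had 3 libraries, named parallel samples in the labels. Whether these stem from separate animals is not stated, and the p-values therefore reflect only the spread among these samples, which may be technical.

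Hox genes encode homeodomain transcription factors that lie side by side in clusters named A to D, and genes at the same place in different clusters form a paralog group. During development their order along the chromosome matches their order of expression from head to tail. Paralog groups at the front of the clusters are used from the hindbrain backwards, those at the back in the trunk and lumbosacral cord, and the forebrain and midbrain normally lack Hox expression. Retinoic acid starts their transcription, Polycomb and Trithorax proteins keep it off or on, and PBX, MEIS and PKNOX proteins of the TALE class bind DNA together with Hox proteins. Neurons of the adult brainstem and cord keep part of this expression.

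The deposited values are TPM, a share of all transcripts in a library that is scaled for gene length, so levels may be compared between genes. TPM keep no record of depth, and a value of 0 means only that the gene is listed at 0. Libraries had 16715 to 16962 genes with a value above 0. The tissue is labelled brain, although retina is the tissue named in the extraction protocol. The synaptic gene Snap25 stood at 2448 to 3573 TPM in the 9 libraries, and 8 marker genes of retina summed to 2.65 to 7.58 TPM. No library had more than 0.174 TPM of any of 4 Y-linked genes (Uty, Kdm5d, Eif2s3y and Ddx3y), against the label male. Libraries of a group were not evenly spaced. Where the other pair of its group differed at least 1.3-fold, young library 3 had an intermediate value at 89.1% of genes, aged library 2 at 91.5% and treated library 3 at 91.9%, against 18.9% to 30.5% for the other libraries. Counts below are for this reason repeated with these 3 libraries left out, which leaves 2 libraries per group.

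The 10 genes lie in 3 clusters. On the GRCm38 assembly, which is also called mm10, with GENCODE M21 gene models, Hoxa3 (NCBI gene 15400, chromosome 6, 52169062 to 52213336), Hoxa4 (15401, 52189671 to 52191753) and Hoxa5 (15402, 52201754 to 52204587) are on the minus strand of the A cluster. The B cluster on the plus strand of chromosome 11 holds Hoxb6 (15414, 96292476 to 96301569), Hoxb5 (15413, 96303336 to 96306121), Hoxb4 (15412, 96318267 to 96321638), Hoxb3 (15410, 96323326 to 96347930) and Hoxb2 (103889, 96350525 to 96354012). The C cluster on the plus strand of chromosome 15 holds Hoxc5 (15424, 102967443 to 103017429) and Hoxc4 (15423, 103018934 to 103036852). Several overlap other genes. Antisense genes cover 52.9% of the exonic bases of Hoxb3 and 27.3% of those of Hoxb2, in both cases Hoxb3os, 25.4% of those of Hoxa3 and a smaller share of those of Hoxa4. For Hoxb5 the share is 3.59%, and Hoxc5 shares 5.37% with Hoxc10 on the same strand. The sources used here do not give whether counting used strand, so levels of these genes and of their antisense partners cannot be told apart. In the GENCODE models, exons of Hoxa5, Hoxb4, Hoxb6 and Hoxc4 overlap no exon of another gene, although Hoxa5 lies within the span of Hoxa3. By RefSeq positions Hoxb3 begins at 96307101, so that Hoxb4 lies within its span. Exon overlaps were not examined in RefSeq models.

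The sequence before the starts of these genes was described from a RefSeq table of GRCm38.p6 promoters that held 4 of the 10 (Hoxa3, Hoxa5, Hoxb4 and Hoxc4). The 250 bases before the start are shown for Hoxa5 and Hoxb4, whose windows hold no annotated exon. Capitals mark the motif found, and each sequence runs 5′ to 3′ on the strand of its gene.
Hoxa5, chr6:52204588-52204837, minus strand: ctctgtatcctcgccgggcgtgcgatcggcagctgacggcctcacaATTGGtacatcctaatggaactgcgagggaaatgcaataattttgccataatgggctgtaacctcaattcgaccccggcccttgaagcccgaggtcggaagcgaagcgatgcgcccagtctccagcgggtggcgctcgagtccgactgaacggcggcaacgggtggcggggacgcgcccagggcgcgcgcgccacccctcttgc
Hoxb4, chr11:96318017-96318266, plus strand: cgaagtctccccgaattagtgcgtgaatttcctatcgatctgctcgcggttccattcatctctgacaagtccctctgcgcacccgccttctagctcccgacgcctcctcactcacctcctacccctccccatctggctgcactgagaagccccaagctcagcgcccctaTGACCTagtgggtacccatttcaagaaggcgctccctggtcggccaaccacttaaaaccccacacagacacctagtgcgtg
The 4 motifs searched on both strands were TATAAA (the TATA box), CCAAT (the CCAAT box), TGATNNAT (a PBX and Hox composite site) and AGGTCA (a nuclear receptor half-site, as bound by retinoic acid receptors). No window held more than 1 match. Hoxa5 held 1 CCAAT on the opposite strand, which reads ATTGG above, at -204 to -200 from the start. Hoxb4 held 1 AGGTCA on the opposite strand, which reads TGACCT, at -81 to -76. Hoxc4 also held 1 AGGTCA, at -146 to -141, and Hoxa3 held none of the motifs. Of 32851 promoters of the same length, AGGTCA was found in 4607, CCAAT in 33.8%, TATAAA in 12.4% and TGATNNAT in 7.68%. Both windows were rich in G and C. Hoxa5 had 63.6% G or C and 28 CpG, and Hoxb4 58.0% and 14, against medians of 52.4% and 6 over all promoters.

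All 10 genes were above 0 in every young library and were lower in every aged and treated library than in any young one. Hoxb5, a factor of paralog group 5, was the most abundant. It stood at 10.96, 13.69 and 12.04 TPM in young libraries 1 to 3, at 0, 0.979 and 1.26 TPM in the aged saline libraries, and at 0 in all 3 treated libraries. The lowest young value thus lay far above the highest aged value. Hoxa5, of the same paralog group and known for roles in cervical motor neurons and in brainstem nuclei, had 6.58, 10.3 and 8.54 TPM in the young, 0, 0.843 and 1.50 TPM in the aged and 0, 0.065 and 0.067 TPM in the treated libraries. Aged libraries 2 and 3 lay above every treated library, while aged library 1 was at 0 like treated library 1. Hoxc5, the third member of the group, was low throughout, with 1.12, 1.999 and 1.24 TPM in young, 0, 0.090 and 0.171 TPM in aged and 0.094, 0 and 0 TPM in treated libraries.

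Among genes of paralog group 4, which mark the lower hindbrain and the cord behind it, Hoxc4 was the most abundant. It had 8.94, 9.66 and 9.65 TPM in young, 0, 0.751 and 1.62 TPM in aged and 0.374, 0 and 0.369 TPM in treated libraries. The young libraries differed little at this gene (mean 9.42 ± 0.410 TPM, SD, n = 3). Hoxa4 stood at 2.25, 2.82 and 2.57 TPM in young, 0, 0.060 and 0.116 TPM in aged and 0.063, 0 and 0.062 TPM in treated libraries. Aged and treated libraries overlapped fully at Hoxa4. Hoxb4 had 1.63, 2.84 and 1.97 TPM in young, 0, 0.220 and 0.211 TPM in aged and 0, 0.292 and 0.075 TPM in treated libraries, so that here 1 treated library was the highest of the 6 libraries from aged mice.

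Genes of paralog groups 2 and 3 have the most forward expression of the 10, and those of group 2 reach into the front part of the hindbrain. Hoxb2, which helps specify facial motor neurons, had 3.22, 4.45 and 4.15 TPM in young, 0, 0.333 and 0.397 TPM in aged and 0, 0.044 and 0 TPM in treated libraries. Hoxb3 had 3.49, 4.85 and 4.86 TPM in young, 0.127, 0.315 and 0.862 TPM in aged and 0.184, 0.117 and 0.221 TPM in treated libraries. It was the 1 gene of the 10 above 0 in all 9 libraries, and much of its exonic sequence, as given above, lies opposite Hoxb3os. Hoxa3, which acts with its paralogs in the hindbrain and pharyngeal arches, had 1.33, 1.31 and 1.54 TPM in young, 0, 0.129 and 0.224 TPM in aged and 0, 0.032 and 0 TPM in treated libraries. Hoxb6, of paralog group 6, is the most rearward of the 10. It had 1.95, 4.21 and 2.53 TPM in young, 0, 0.159 and 0.361 TPM in aged saline libraries and was listed at 0 in all treated libraries.

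**Figure D1:**
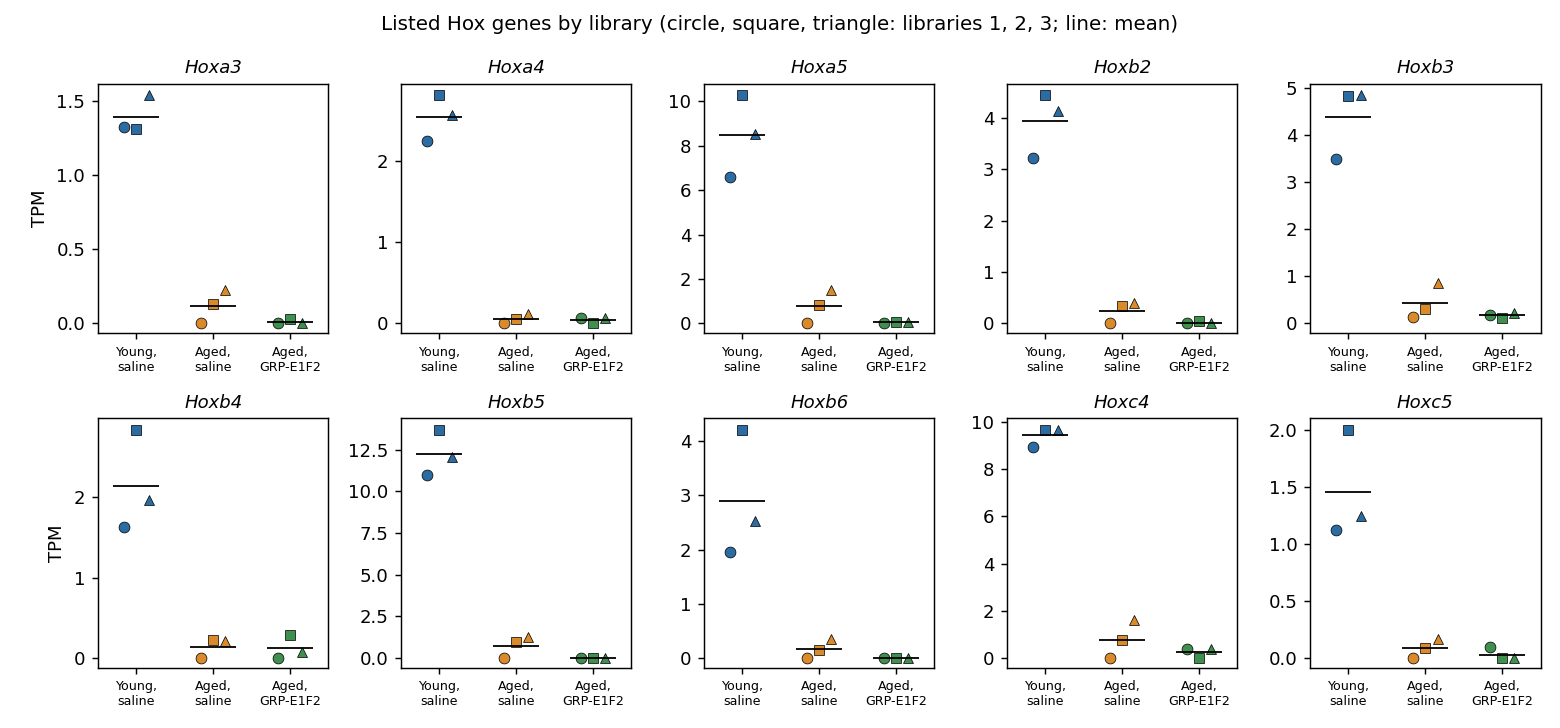
TPM (vertical axes, scaled per gene) of the 10 Hox genes in each library, by group on the horizontal axis. Circles, squares and triangles are libraries 1, 2 and 3, and lines are group means. Every young point lies above every aged and treated point, and aged library 1 lies at 0 for 9 of the 10 genes.

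Ordered by their mean in the young libraries, the levels ran from Hoxb5 (12.2 ± 1.37 TPM, SD, n = 3) over Hoxc4 (9.42 ± 0.410 TPM) and Hoxa5 (8.47 ± 1.86 TPM) to Hoxb3 (4.40 ± 0.788 TPM), Hoxb2 (3.94 ± 0.639 TPM) and Hoxb6 (2.90 ± 1.17 TPM). Hoxa4 (2.55 ± 0.283 TPM), Hoxb4 (2.15 ± 0.627 TPM), Hoxc5 (1.45 ± 0.476 TPM) and Hoxa3 (1.39 ± 0.128 TPM) followed. Of the neighbours in this order, Hoxb5 and Hoxc4 had ranges that did not overlap, and so did Hoxa5 and Hoxb3. All other neighbours overlapped. These are modest levels. Hoxb5 lay above 68.0% of all genes in the table by its young mean, and Hoxa3 above 42.7%.

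The 10 genes kept much the same order of libraries within the young and within the aged saline group. In the young group, library 1 was the lowest at 9 of the 10 genes and library 2 the highest at 8, with a summed level of 41.5, 56.1 and 49.1 TPM in libraries 1, 2 and 3. In the aged saline group, library 1 was the lowest at all 10 genes and library 3 the highest at 9, with sums of 0.127, 3.88 and 6.72 TPM. The treated libraries summed to 0.716, 0.549 and 0.794 TPM, with 6, 5 and 5 of the 10 genes listed at 0. They showed no shared order, with libraries 1, 2 and 3 the highest at 3, 3 and 2 genes. The aged saline libraries thus spread far more widely than the treated, and the Hox sum of aged library 1 lay below that of every treated library.

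The 29 other Hox genes included 10 listed at 0 in every library, and none reached a mean of 1 TPM over the 9 libraries. Hoxb8, a gene of the cord, had 2.52, 2.59 and 2.15 TPM in young, 0, 0.542 and 1.11 TPM in aged saline libraries and 0 in the treated. Hoxd4 had 1.98, 1.72 and 2.26 TPM in young, 0, 0.073 and 0.705 TPM in aged saline libraries and 0 in the treated. Hoxd3 had 1.27, 1.91 and 1.42 TPM in young, 0, 0.133 and 0.329 TPM in aged saline libraries and 0 in the treated. Their young means of 2.42, 1.99 and 1.53 TPM were above those of the listed Hoxc5 and Hoxa3, so the 10 genes are not the 10 most abundant Hox genes. Hoxa2, the most forward of the Hox genes in the hindbrain, had 0.714, 1.27 and 0.946 TPM in young libraries and at most 0.120 TPM in the others.

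Genes of paralog groups 9 to 13, which pattern the lower cord, limbs and trunk, summed to no more than 0.627 TPM in any library. Hoxa13 had 0.126 to 0.421 TPM, and its values overlapped among the 3 groups. By cluster, the young libraries summed to 12.6 to 16.5 TPM in A, 23.9 to 32.9 TPM in B, 10.4 to 12.1 TPM in C and 3.83 to 4.23 TPM in D.

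**Figure D2:**
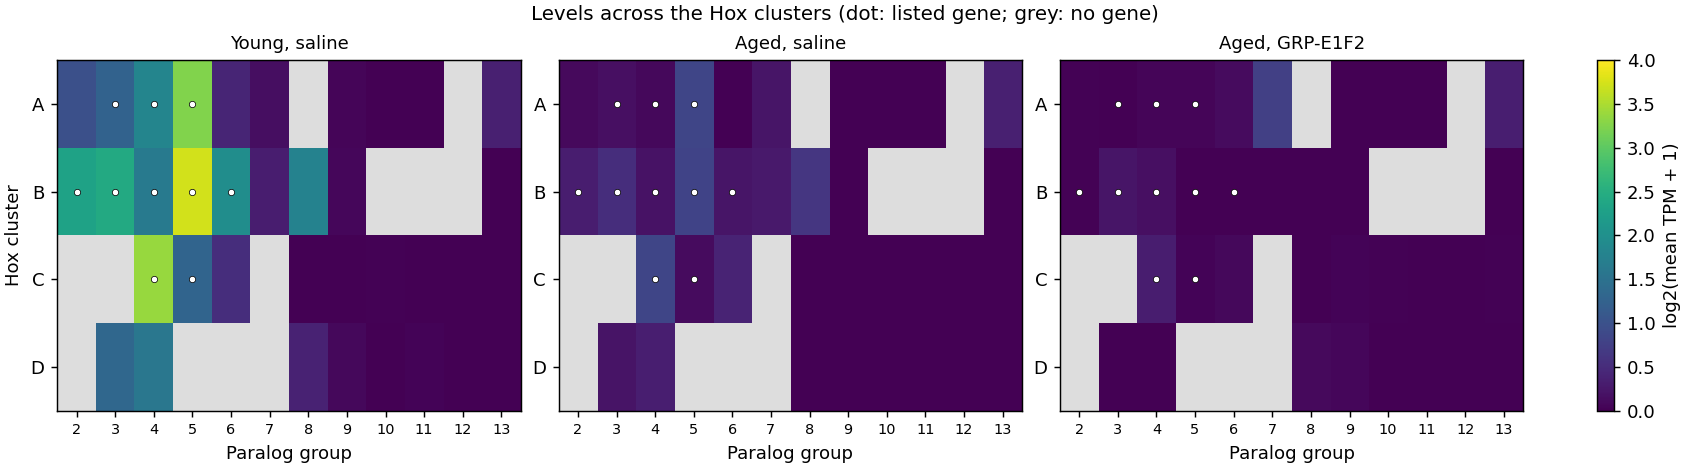
Mean level of the Hox genes of paralog groups 2 to 13, as log2(mean TPM + 1) in colour, by paralog group (horizontal axis) and cluster (vertical axis), with 1 panel per group of libraries (n = 3 each). White dots mark the 10 listed genes and grey means no gene. In the young panel levels are concentrated in paralog groups 2 to 6 and at Hoxb8, and they are low in the other panels.

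The comparison of aged with young saline libraries asked what differs with age. It is the contrast that the choice of genes used, so no test of it is read. Of the 10 genes, 6 had a mean of at least 1 TPM and entered the fit across 13301 genes (limma on log2(TPM + 1), Benjamini-Hochberg adjusted p under 0.05). They did so only through the young libraries. Differences were taken in log2(TPM + 1), a scale that compresses differences between low values. They were -3.00 for Hoxb5 (SE 0.258), -2.65 for Hoxc4 (SE 0.295), -2.49 for Hoxa5 (SE 0.290), -1.997 for Hoxb2 (SE 0.147), -1.93 for Hoxb3 (SE 0.183) and -1.70 for Hoxb6 (SE 0.198). All 6 passed, beside 11.2% of all genes tested that fell and 5.48% that rose. In a fit with no filter, 10 of the 10 passed beside 8.9% of 18383 genes, and 5 of the 19 other Hox genes above 0 somewhere did (Hoxa2, Hoxa6, Hoxb8, Hoxd3 and Hoxd4). In the limma fit of 2 libraries per group 0 of the 6 passed, while 6 had an unadjusted p under 0.05. With no filter and 2 libraries 1 passed, Hoxa4. Groups did not overlap at 10 of the 10 genes, beside 23.2% of all genes with young above aged. In bulk samples fewer cells of a type and less RNA per cell cannot be told apart, and a different share of hindbrain tissue in the dissected samples was not tested.

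The comparison of treated with aged saline libraries asked what differs with GRP-E1F2. None of the 6 genes tested passed in the limma fit, where 13.4% of all genes fell and 7.47% rose. Of these, 2 had an unadjusted p under 0.05, Hoxb5 (difference -0.72 on the log2(TPM + 1) scale, SE 0.258, adjusted p = 0.0792) and Hoxa5 (-0.67, SE 0.290, adjusted p = 0.132). The other 4 differences were -0.43 for Hoxc4 (SE 0.295), -0.28 for Hoxb2 (SE 0.147), -0.26 for Hoxb3 (SE 0.183) and -0.22 for Hoxb6 (SE 0.198). With no filter, 0 of the 10 passed beside 10.7% of all genes that fell (limma, 1 with an unadjusted p under 0.05), and 0 of the 19 other Hox genes did (2 with an unadjusted p under 0.05, among them Hoxb8). Groups did not overlap at 0 of the 10 genes with aged above treated, beside 19.2% of all genes. All 6 genes tested had entered the fit only through the young libraries. In the aged saline and treated groups their means were at most 0.790 TPM, where the log2(TPM + 1) scale compresses differences. That none passed therefore says little about GRP-E1F2. The aged saline values were among those known when the genes were chosen.

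The absence of calls with treatment rested on aged library 1. Without it, 4 of the 6 genes passed in the limma fit: Hoxb5 (-1.08, SE 0.109, adjusted p = 0.000739), Hoxa5 (-1.04, SE 0.185, adjusted p = 0.00813), Hoxc4 (-0.80, SE 0.197, adjusted p = 0.0255) and Hoxb2 (-0.43, SE 0.122, adjusted p = 0.0413). Over all alternatives the adjusted p ran from 0.000739 to 0.633 for Hoxb5, from 0.00813 to 0.67 for Hoxa5, from 0.0255 to 0.83 for Hoxc4 and from 0.0373 to 0.776 for Hoxb2, the highest values coming from fits of 2 libraries per group or, for Hoxc4, without aged library 3. With no filter and without aged library 1, Hoxa3 passed as well (adjusted p = 0.042 in limma, 0.042 to 0.725 over its alternatives). Aged libraries 2 and 3, the pair that this fit kept, were the ones whose summed Hox levels lay above those of the treated libraries. Leaving out aged library 1, the lowest of its group at all 10 genes, raised the aged mean of each. The adjusted p-values without it are therefore given as a description. Over the fits that left out 1 library, 1345 to 3060 of all genes passed in this comparison.

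**Figure D3:**
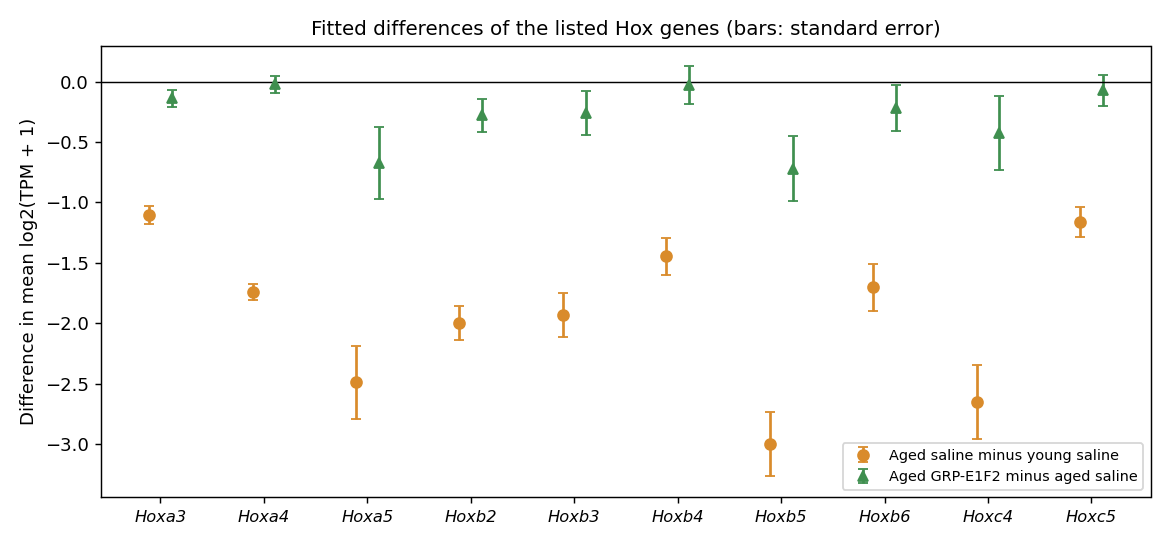
Fitted differences in mean log2(TPM + 1) of the 10 genes (vertical axis) between aged and young saline libraries (circles) and between treated and aged saline libraries (triangles), from the fit with no filter over 9 libraries. Bars are standard errors. The treated differences lie between -0.72 and -0.02, and the age differences, which the choice of genes used, between -3.00 and -1.10.

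Against the young libraries, the treated libraries were lower at every gene, again in a contrast that the choice of genes used and that shares the treated libraries with the test above. The differences on the log2(TPM + 1) scale ran from -3.72 for Hoxb5 to -1.92 for Hoxb6 among the 6 genes tested. All 6 passed beside 29.4% of all genes that fell and 17.2% that rose, and with no filter 10 of the 10 passed beside 23.9%. Groups did not overlap at 10 of the 10 genes, beside 32.7% of all genes with young above treated.

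Other genes of hindbrain and cord neurons were followed from lists chosen by function (44 genes of glycinergic, serotonergic, noradrenergic, motor and cholinergic neurons and of interneuron transcription factors, 26 of them tested). These lists and those below were drawn up with earlier results of these data known. Their counts are therefore given as a description, and nothing is supported with them. With age 11 of the 26 fell and 0 rose (median -0.56, beside -0.05 over all genes tested). Over all genes tested 11.2% fell and 5.48% rose with age. With treatment 10 fell and 1 rose (median -0.47, beside -0.02 over all genes), where 13.4% of all genes fell and 7.47% rose. Against young libraries, 16 fell and 3 rose with treatment, beside 29.4% and 17.2% of all genes. From 2 libraries per group 1 fell with age, Nps, and 8 with treatment. Without young library 3 or aged library 2, 6 genes passed with age.

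Genes of glycinergic neurons, which are inhibitory cells abundant in brainstem and cord, were mixed: of 4 tested, 2 fell with age, Slc6a5 and Glra1. Slc6a5, the neuronal glycine transporter, had 6.68, 12.5 and 9.58 TPM in young, 1.45, 1.54 and 1.75 TPM in aged saline libraries and 0 in all treated libraries. It fell with age (-2.001 on the log2(TPM + 1) scale, adjusted p = 0.00109 in limma) and again with treatment (-1.36, adjusted p = 0.000932). Neither call remained with 2 libraries per group. Unlike the Hox genes, Slc6a5 was above 1 TPM in aged library 1. Glra1, the adult glycine receptor subunit, had 3.49, 5.50 and 4.15 TPM in young, 0.103, 0.663 and 1.18 TPM in aged and 0, 0.093 and 0.066 TPM in treated libraries. It fell with age (-1.74, adjusted p = 0.00419 in limma), and with treatment its difference was -0.59 (adjusted p = 0.0999). Glrb and Slc32a1, which are also used widely in the forebrain, differed by 0.16 and -0.21 with age and passed in neither comparison.

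Genes of serotonergic and noradrenergic neurons, whose cell bodies lie in the raphe nuclei and the locus coeruleus, took a different course among the aged libraries. Tph2, the enzyme of serotonin synthesis in neurons, had 2.10, 2.24 and 2.12 TPM in young, 0.185, 2.21 and 4.23 TPM in aged and 0.123, 0.057 and 0.090 TPM in treated libraries. Aged libraries 2 and 3 therefore had Tph2 at or above the young level while their Hox sums were 3.88 and 6.72 TPM against at least 41.5 TPM in young libraries. Slc6a4, the serotonin transporter, had 1.23, 1.34 and 1.11 TPM in young, 0, 1.62 and 2.87 TPM in aged and at most 0.045 TPM in treated libraries. Dbh, which makes noradrenaline, had 0.501, 0.647 and 0.565 TPM in young, 0.069, 0.725 and 1.34 TPM in aged and 0.183 to 0.384 TPM in treated libraries. In aged library 1 these 3 genes were low, as were the Hox genes. Tph2 did not pass in either comparison (-0.22 with age, adjusted p = 0.753, and -1.31 with treatment, adjusted p = 0.0573, in limma).

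Another gene of the hindbrain was low in all libraries from aged mice. Nps, the neuropeptide S precursor of a small cell group beside the locus coeruleus, had 4.06, 4.97 and 6.28 TPM in young libraries and was listed at 0 in all 6 others. It fell with age in limma (-2.59, adjusted p = 4.23e-05). Of 6 motor and cholinergic genes tested 0 passed with age in limma (2 with an unadjusted p under 0.05) and 0 with treatment (0 with an unadjusted p under 0.05).

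Transcription factors of hindbrain and cord interneurons, several of which also act in cerebellar neurons, had the lowest median of these 5 lists with treatment. Of 11 tested, 8 fell with age (median -0.72) and 9 with treatment (median -1.76), beside 11.2% and 13.4% of all genes tested. From 2 libraries per group 0 fell with age and 8 with treatment. The count with age was 3 without young library 3 or aged library 2 and 5 without young library 2 or aged library 1. Tlx3 had 4.52, 7.19 and 6.25 TPM in young libraries, 8.72, 7.11 and 6.34 TPM in aged saline libraries and was listed at 0 in all treated libraries (-3.06 with treatment, adjusted p = 4.09e-06 in limma). It stood in aged library 1, where the Hox genes were at or near 0, at its highest level. Lhx1, also a factor of Purkinje cells, had 9.86, 15.0 and 13.1 TPM in young, 6.53, 7.22 and 7.62 TPM in aged and at most 0.078 TPM in treated libraries (-2.93, adjusted p = 2.07e-06 in limma). Lbx1, a factor of dorsal interneurons, had 5.75, 8.52 and 7.46 TPM in young, 2.48, 2.97 and 3.00 TPM in aged saline libraries and 0 in the treated. Mab21l2 was closer to the Hox genes, with 8.65, 10.01 and 9.62 TPM in young, 1.34, 2.27 and 3.07 TPM in aged and 0.183, 0.427 and 0.355 TPM in treated libraries.

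Markers of other regions and cell types moved beside the Hox genes, and their part in the differences above was not tested. The 12 genes of cerebellar neurons summed to 3359 to 4860 TPM in young, 2047 to 2443 TPM in aged and 150.2 to 158.7 TPM in treated libraries. Of the 12, 11 fell with age and 12 with treatment, beside 11.2% and 13.4% of all genes tested. In the young group the cerebellar sum had the order of the Hox sum, with library 2 the highest and library 1 the lowest. In aged library 1 it was still 2047 TPM, where the Hox sum was 0.127 TPM. The 14 transcription factors of the forebrain summed to 128.5 to 179.7 TPM in young, 243.3 to 267.9 TPM in aged and 316.1 to 370.3 TPM in treated libraries, with young library 2 the lowest. Of these 8 rose with age and 3 with treatment, beside 5.48% and 7.47% of all genes tested. With 2 libraries per group 0 of the cerebellar and 0 of the forebrain genes passed with age, while 11 cerebellar and 0 forebrain genes passed with treatment. The cerebellar count with age was 3 without young library 3 or aged library 2, and the forebrain count was 5, 1, 2 and 0 on leaving out young library 2, young library 3, aged library 1 and aged library 2 in turn.

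Cell types outside the neurons differed as well. The 9 genes of meningeal fibroblasts, cells that can express Hox genes, summed to 116.1 to 129.3 TPM in young, 50.03 to 74.06 TPM in aged and 48.4 to 56.8 TPM in treated libraries. With age 8 of 9 fell (5 without young library 2 or 3 or aged library 2), beside 11.2% of all genes tested. The 8 genes of the choroid plexus, which also lies in the fourth ventricle, summed to 2253 to 2310.0 TPM in young, 159.4 to 1252 TPM in aged and 21.3 to 965 TPM in treated libraries. Aged library 1 was the lowest of its group there too. Among the treated libraries the choroid plexus sum was lowest in library 2. The sum of the 10 Hox genes was lowest there too, but all 3 treated sums were near 0 (0.549 TPM against 0.716 and 0.794 TPM). The sum of all 39 Hox genes was instead highest in treated library 2, at 3.49 TPM against 1.66 and 2.04 TPM. The 6 genes of Schwann cells and peripheral nerve summed to 65.2 to 86.7 TPM in young, 71.8 to 79.4 TPM in aged and 47.2 to 60.1 TPM in treated libraries. Of that sum, Pmp22, which cells outside peripheral nerve also express, made up 36.3 to 79.0 TPM. In the young group Ttr of the choroid plexus stood at 2224 to 2282 TPM and the fibroblast gene Dcn at 28.96 to 38.85 TPM.

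**Figure D4:**
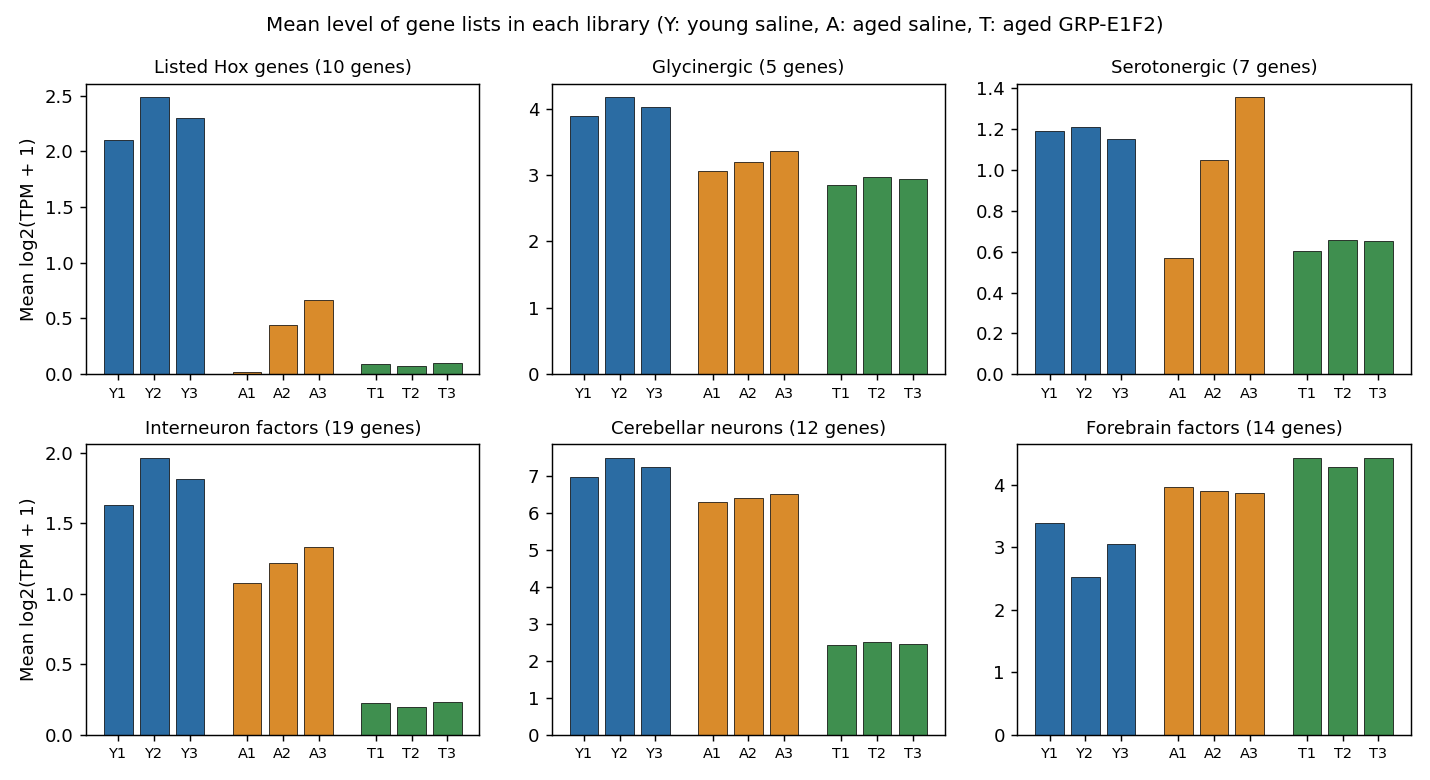
Mean log2(TPM + 1) (vertical axes, each from 0) of the 10 Hox genes and of 5 other gene lists in each library (horizontal axis, Y young saline, A aged saline, T treated). Aged library 1 is nearly empty for the Hox list, while its bars for interneuron factors and cerebellar genes stand close to those of the other aged saline libraries and well above the treated ones.

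Genes that act with or on Hox genes were less uniform. Of 9 TALE cofactor genes, 2 rose with age (Meis2 and Pknox2) and 3 with treatment (Meis2 and Meis3 among them), and 0 fell in either comparison. Over all genes tested 5.48% rose with age and 7.47% with treatment. Meis2, also a factor of striatal and olfactory neurons, had 30.8, 16.1 and 23.1 TPM in young, 41.6, 41.2 and 44.3 TPM in aged and 79.4, 120.8 and 99.8 TPM in treated libraries. It rose by 0.88 with age (adjusted p = 0.0269) and by 1.20 with treatment (adjusted p = 0.00492) in limma. Its order among young libraries was the reverse of that of the Hox genes. Meis1 had 12.7, 16.9 and 14.1 TPM in young, 9.06, 8.77 and 9.72 TPM in aged and 2.60, 9.58 and 5.79 TPM in treated libraries.

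Of 21 tested Polycomb and Trithorax genes 4 fell with age (among them Ezh1, Cbx8 and Phc2) and 3 with treatment (Eed, Cbx7 and Kmt2b), and 0 rose. Over all genes tested 11.2% fell with age and 13.4% with treatment, so these counts, and those of the retinoid genes given next, are read as no result about the lists. The changes were small. Phc2 differed by -0.49 with age (adjusted p = 0.0081 in limma), and Cbx7 by -0.47 with treatment (adjusted p = 0.000227), against a median over all genes of -0.05 and -0.02. Of 13 tested genes of retinoid signalling and the Cdx factors 2 fell in each comparison, Aldh1a1 and Aldh1a2, enzymes that make retinoic acid. Aldh1a1 had 61.7, 85.5 and 70.8 TPM in young, 23.7, 29.1 and 35.1 TPM in aged and 9.37, 9.29 and 9.04 TPM in treated libraries. With 2 libraries per group 0 genes of these 3 lists passed with age, and 2 passed with treatment, among them Aldh1a1. Without young library 3 or aged library 2, 0 TALE genes, 1 Polycomb or Trithorax gene and 1 retinoid gene passed with age, and without young library 2 the counts were 0, 1 and 2.

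The nearest coding genes on either side of the clusters, chosen after values had been seen, served as a local reference. Skap2 beside the A cluster had 8.24 ± 0.329 TPM in young, 8.71 ± 0.261 TPM in aged and 7.46 ± 0.713 TPM in treated libraries (SD, n = 3). Calcoco1 and Smug1 beside the C cluster had age differences of -0.07 and 0.18, and Mtx2 beside the D cluster one of -0.01, none of which passed in limma. Skap1 on one side of the B cluster differed with age by 0.43 (adjusted p = 0.0512 in limma). Ttll6 on its other side was at most 0.125 TPM in any library and was not tested at the filter of 1 TPM. With treatment Calcoco1 rose by 0.26 (adjusted p = 0.0323), while Skap2, Skap1, Smug1 and Mtx2 did not pass. Evx1 and Evx2, homeobox genes at the rear end of the A and D clusters and factors of cord interneurons, were at most 0.730 and 0.294 TPM in any library and were listed at 0 in all treated libraries.

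Over the 9 libraries, the genes whose log2(TPM + 1) was most like the mean of the 10 Hox genes were Cyp27a1 (Pearson r = 0.993), Fam98a (0.992), Col3a1 (0.990), Narf (0.989), Mpzl1 (0.988), Sparcl1 (0.988), Glra1 (0.988), Ddr1 (0.988), Gja1 (0.988) and Scd2 (0.986), out of 12920 candidates. The points share their libraries and fall into 3 groups, so r mostly restates the difference between the young group and the others. Ranking by Spearman correlation kept 1 of these 10 genes among the first 10. Glra1 is the only one of them in the hindbrain lists. Cyp27a1, a sterol hydroxylase, had 9.19, 12.5 and 10.6 TPM in young, 3.86, 5.03 and 5.82 TPM in aged and 4.38, 4.25 and 4.33 TPM in treated libraries, so its fold difference was far smaller than that of the Hox genes.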

How the data were processed

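RNA sequencing of 9 brain libraries, 3 per group, used the NEBNext Ultra II kit on 0.4 ug of total RNA, per the labels' protocols. The submitters' processing notes name build mm10 and the tools GATK, HISAT2, Picard and SAMtools 0.1.18. The authors deposited TPM values for each gene. How TPM were computed, with which annotation and use of strand, is not given in the sources that were used. TPM hold no counts, so the depth and counting error are unknown and no test on counts was run.

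Values were transformed to log2(TPM + 1). A filter at a mean of 1 TPM left 13301 genes. They were fitted in R 4.3.3 by limma 3.58.1 (eBayes with trend after lmFit and contrasts.fit) over all 9 libraries, with two-sided p-values adjusted by Benjamini-Hochberg over all genes tested. The words rose and fell are used for an adjusted p under 0.05. The fit was tested on simulated data. The Hox genes and gene lists were chosen with earlier results of these data known. Of 232 symbols in the lists 215 were found. The others are 17 noncoding Hox-cluster RNAs, not analysed here.

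Genes named are the Hox family, up to 4 genes per list with the highest mean, up to 3 per list and comparison with the smallest p among called genes, and the 10 genes most like the Hox mean by Pearson r, predicted genes left out. A few genes that this rule took are not reported here. Meis1, Y-linked genes, called genes named in counts and the genes beside the clusters were chosen after values were seen. A planned search for homeodomains was not run. Alternatives were pseudocounts of 0.1 and 0.5, other filters, median-of-ratios and quantile scaling, robust eBayes, a replicate block, fits of the groups compared, leaving out each library and 2 libraries per group. Fits with no filter that left out libraries were added after seeing the data. Python 3.11.15, pandas 2.3.3, numpy 2.4.6 and matplotlib 3.10.9 were also used.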

Additional observations from a re-analysis of the deposited data

How the results depend on the processing

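Counts of listed Hox genes that passed were 6 with age, 0 with treatment and 6 for treated against young libraries. They were the same under both pseudocounts, both other scalings, robust eBayes, fits of the groups compared and the replicate block (6, 0 and 6). A filter at a mean of 5 TPM left none of them to test and gives no value. With no filter the counts were 10, 0 and 10, and for the other Hox genes, none of which passed the main filter, 5, 0 and 4. With 2 libraries per group the listed genes counted 0, 0 and 6, and with no filter as well 1, 0 and 10, with 3 other Hox genes against young. Leaving out 1 library gave 6 to 6, 0 to 4 and 6 to 6 listed genes, and with no filter 10 to 10, 0 to 5 and 10 to 10, the rise with treatment coming without aged library 1. For the other Hox genes with no filter the ranges were 3 to 5, 0 to 3 and 4 to 6.

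The hindbrain neuron lists counted 11, 11 and 19 genes. With no filter these became 20, 14 and 33, with a mean of at least 5 TPM 1, 1 and 2, and with 2 libraries per group 1, 8 and 12. Leaving out 1 library gave 6 to 13, 11 to 15 and 18 to 22. Over all genes, 2217, 2771 and 6204 passed, and with 2 libraries per group 3, 248 and 1713. Leaving out 1 library gave 371 to 2635, 1345 to 3060 and 4737 to 6635. No result changed direction where it was called.

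Replicate numbers did not pair the samples. Same-numbered libraries of the young and aged saline groups correlated in their deviations at 0.126, -0.0254 and -0.00109, those of young and treated at -0.0549, -0.0392 and 0.0258, and those of aged saline and treated at 0.0511, 0.0216 and 0.0235. With the replicate block the hindbrain lists counted 11, 11 and 18. Depth is unknown, so the counting error of values near 0 is unknown too.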
